A study of Mus musculus with 238 samples.

Results

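The genes described are Fmo1, Fmo2 and Fmo5, the flavin-containing monooxygenases that had counts in every brain library. These are 3 of 21076 gene rows in a table of 238 RNA-seq libraries of the mouse. They were chosen by name, after Fmo2 had stood out in an earlier look at the diet comparison of the same libraries. Their diet values are therefore given as a description without a test, while the plasma comparison, the regional levels of control mice and the difference between liver and brain were tested. All mice were of the C57BL/6JN strain and 19 months old. In the diet experiment, 5 females were dietary restricted (aDR in the brain libraries, DR in those of the liver) and 4 were fed freely (AL). In the plasma experiment, 3 males received injections of plasma from young mice (YMP) behind the eye and 4 received saline (PBS). For each animal up to 15 brain regions were sequenced, and the liver only in the diet experiment, which gave 73 aDR, 58 AL, 44 YMP and 54 PBS brain libraries and 9 liver libraries. Sex and experiment coincided, so that females and males cannot be told apart from the 2 experiments, and the length of the restriction and of the plasma course is not given in the sources used here.

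Flavin-containing monooxygenases are enzymes of the endoplasmic reticulum membrane that carry a flavin and use NADPH and oxygen to oxidise soft nitrogen and sulfur atoms of drugs, food amines and small thiols. FMO1 also converts hypotaurine to taurine, FMO5 acts as a Baeyer-Villiger oxidase on ketones, and FMO2 is best known from the lung. Enzymes of the family were linked to diet restriction in the nematode, in which a flavin monooxygenase is needed for the longer life of restricted worms.

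In the GENCODE annotation of the GRCm38 build, Fmo1 lies at chr1:162829561-162866610 and Fmo2 at chr1:162874317-162898726, both on the minus strand. Fmo5 lies apart from them at chr3:97628804-97655282 on the plus strand. Fmo4 and Fmo6 lie near the chromosome 1 pair, and none of the 3 genes described overlaps another annotated gene, which matters because the libraries carry no strand. The 250 bases upstream of the RefSeq transcription start of Fmo2 (GRCm38.p6, chr1:162898759-162899008, minus strand, printed 5′ to 3′) are shown because Fmo2 was the member whose level differed between the diets:

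Fmo2 upstream: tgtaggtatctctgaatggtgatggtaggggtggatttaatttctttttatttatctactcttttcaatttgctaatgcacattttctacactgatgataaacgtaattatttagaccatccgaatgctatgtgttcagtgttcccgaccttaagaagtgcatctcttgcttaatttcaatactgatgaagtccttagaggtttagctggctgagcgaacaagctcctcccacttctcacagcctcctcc

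The window was searched on both strands for 6 motifs: AGAACA (glucocorticoid receptor half-site, in 16.1% of 32851 RefSeq windows of the same length), CACGTG (E-box, 6.02%), ACGTG (hypoxia-inducible factor core, contained in the E-box, 16.6%), GTAAACA (FoxO, 3.17%), TGACNNNGC (antioxidant response core, 10.2%) and TGANTCA (AP-1, 6.75%). The Fmo2 window held 0 matches to each, so it is printed without capitals, and this says only that those letters are not in these 250 bases.

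Sequencing depth varied widely: the smallest library held 0.606 M counts (M, mega), the median library 8.44 M and the largest 32.4 M, and 6 lay under 2 M. Levels are given as CPM, the counts of a gene for each M of counts in its library. Values of single mice are listed in the order of their numbers, which are 61, 62, 64, 65 and 67 for aDR, 63, 66, 68 and 69 for AL, 73, 77 and 81 for YMP, and 72, 76, 80 and 84 for PBS. In the 229 brain libraries Fmo1 had 5 to 676 counts (median 70), Fmo5 3 to 234 (median 47) and Fmo2 1 to 263 (median 27), so that a single value of Fmo2 rests on few reads. The summed markers of the labelled tissue were at 0 in 0 libraries. They were high in the liver, cerebellum, thalamus, hypothalamus and olfactory bulb libraries. But the choroid plexus libraries ranged from 139 to 15096 CPM and the pons libraries from 2.79 to 100 CPM (median 57.5). The posterior hippocampus, visual cortex, entorhinal cortex, pons and SVZ markers were as high in at least 1 other region.

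Fmo2 was higher in the restricted mice in each of the 15 brain regions, by 1.09 (pons) to 1.89 (medulla) on the log2 scale with a median of 1.45. In mean CPM the ratio of aDR to AL ran from 2.0 to 3.66. In the medulla the aDR mice had 13.5, 9.59, 10.5, 8.39 and 18.8 CPM of Fmo2 and the AL mice 2.42, 2.72, 3.80 and 4.34 CPM, a log2 difference of 1.89 (SE 0.27). The lowest restricted mouse stood well above the highest freely fed mouse there. In the cerebellum, which had the highest Fmo2 level among control mice, the aDR values were 10.4, 11.1, 8.19, 9.43 and 21.3 CPM and the AL values 3.10, 4.74, 6.18 and 2.84 CPM, a difference of 1.53 (SE 0.30). The groups were apart here too, and aDR mouse 67 was far above the other restricted mice. In the thalamus the aDR values were 6.41, 6.67, 7.40, 6.40 and 20.8 CPM and the AL values 2.46, 2.01, 3.17 and 3.20 CPM, a difference of 1.79 (SE 0.38).

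In the motor cortex, Fmo2 stood at 5.73, 5.52, 4.64, 5.21 and 10 CPM in aDR mice and at 1.14, 1.01, 2.37 and 2.96 CPM in AL mice, a difference of 1.60 (SE 0.28). In the visual cortex it stood at 6.70, 5.36, 3.86, 4.36 and 8.18 CPM in aDR mice and at 2.39, 2.23, 3.55 and 2.65 CPM in AL mice, a difference of 1.19 (SE 0.23). These were the 2 regions in which edgeR's quasi-likelihood test called Fmo2 at a Benjamini-Hochberg adjusted p under 0.05. Over the 15 regions 0.0369% of all gene-by-region pairs were called higher, and since Fmo2 was chosen from this contrast nothing is read from its 2 calls. The number of regions called was 8 with DESeq2, 4 without mouse 65, and 0 without mouse 63, 66 or 68.

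The CPM values of the diet groups did not overlap for Fmo2 in 13 of 15 regions, beside 1.39% of all gene-by-region pairs whose aDR values all lay above the AL values. The exceptions were the pons and the choroid plexus. In the pons the aDR values were 9.10, 7.52, 10.2, 6.18 and 4.17 CPM and the AL values 3.66, 2.31, 5.28 and 3.63 CPM, so that mouse 67 fell among the freely fed mice. Pons libraries differed widely in their tissue markers (2.79 to 100 CPM), and the part of this in the overlap was not tested. In the choroid plexus the aDR values were 6.41, 3.42, 4.76, 3.64 and 5.94 CPM and the AL values 1.13, 0.918, 3.51 and 2.5 CPM, so that 1 aDR mouse lay just below the highest AL mouse. The other 8 regions had aDR means of Fmo2 from 5.40 CPM (entorhinal cortex) to 10.2 CPM (olfactory bulb) and AL means from 1.95 CPM (posterior hippocampus) to 3.89 CPM (olfactory bulb).

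**Figure D1:**
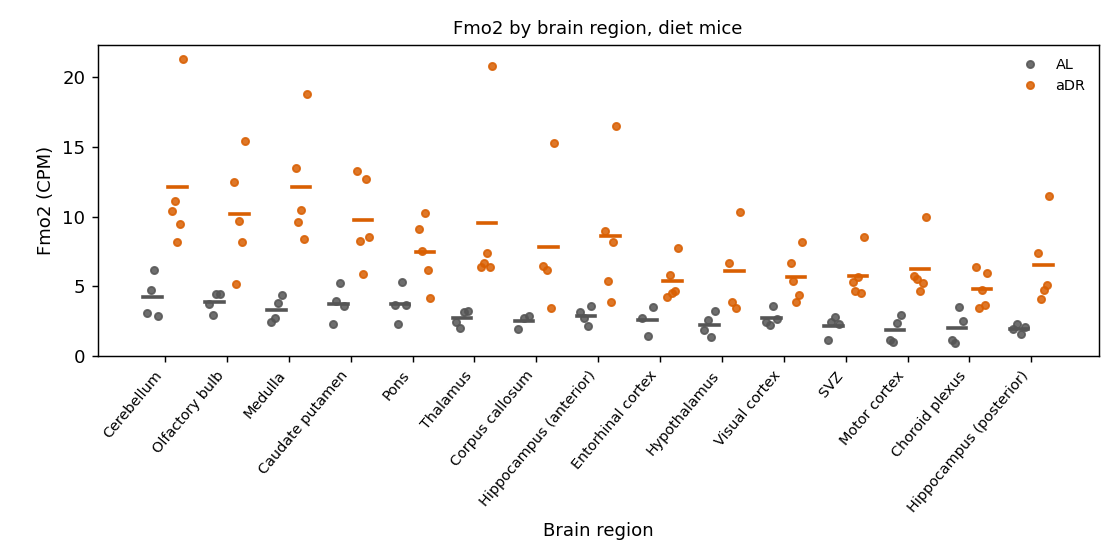
Fmo2 level in CPM (vertical axis) of each library by brain region, for AL mice (grey) and aDR mice (orange); points are mice and short lines are group means. The groups are apart in 13 of 15 regions, and the highest orange points, at 21.3 CPM in the cerebellum and 20.8 CPM in the thalamus, belong to the same mouse.

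Restricted mice also differed among themselves. When each mouse was given 1 value of Fmo2 over its brain regions (the mouse term of log2 CPM on mouse and region), the aDR mice stood at 2.99, 2.67, 2.62, 2.60 and 3.49 and the AL mice at 1.28, 1.33, 1.73 and 1.71. The difference was 1.36 (SE 0.19), and every restricted mouse lay above every freely fed mouse. How many of all genes had mouse values apart was not counted. By mouse value limma called 0.922% of all genes, Fmo2 among them, again without weight because of how it was chosen. The call was lost in 5 of the 9 fits that left out 1 mouse. Mouse 67 had the highest Fmo2 of the aDR mice in 12 of 15 regions. Without it the difference was 1.21, and the groups were apart in 14 of 15 regions.

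Fmo1 had more counts than Fmo2 by median and was not called with diet. Its diet difference in the brain was 0.017 (SE 0.10) by mouse value, and by region it ran from -0.18 (olfactory bulb) to 0.39 (posterior hippocampus), with 9 regions higher and 6 lower. In the medulla and visual cortex the fitted differences were 0.025 and 0.027 but the ratios of mean CPM 0.976 and 0.944. The sign there depends on the scaling. In the posterior hippocampus the aDR mice had 8.17, 5.55, 8.09, 5.59 and 11.6 CPM of Fmo1 and the AL mice 5.69, 6.96, 4.69 and 6.97 CPM. The 2 groups overlapped there and in each of the other 14 regions, and edgeR called Fmo1 in 0 regions, with 0 at an unadjusted p under 0.05. Over all genes, 222 of 13578 (pons) to 1931 of 14119 (olfactory bulb) reached that p in a region.

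Fmo5 leaned the other way in the brain. By the fits it was lower in aDR mice in 13 of 15 regions, and by mouse value the difference was -0.15 (SE 0.057), which limma did not call. In the thalamus the fitted difference was -0.0017 but the ratio of mean CPM 1.01, so that its sign depends on the scaling. The cerebellum gave the largest of the regional differences, -0.59 (SE 0.19). There the aDR mice had 4.88, 5.76, 4.41, 4.96 and 5.46 CPM of Fmo5 and the AL mice 6.03, 8.30, 10.7 and 5.97 CPM, the only region in which the 2 groups of Fmo5 did not overlap. Over the 15 regions the aDR values all lay below the AL values in 1.73% of all gene-by-region pairs. The gene was called by edgeR in 0 regions, with 1, the cerebellum, at an unadjusted p under 0.05. In the cerebellum 1797 of 13366 genes reached that p.

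**Figure D2:**
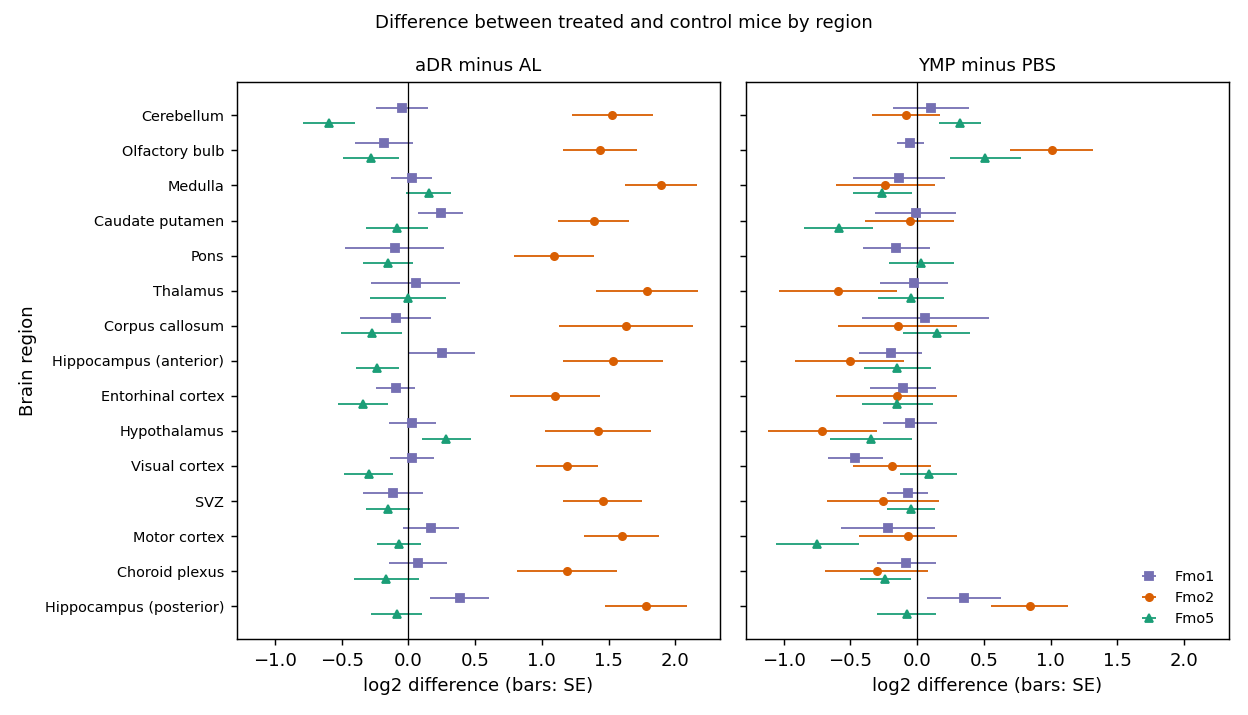
Log2 difference (horizontal axis) between treated and control mice by brain region (vertical axis) for Fmo1 (squares), Fmo2 (circles) and Fmo5 (triangles), with SE bars, in the diet experiment (left) and the plasma experiment (right). For diet the circles lie between 1.09 and 1.89, away from the other genes; for plasma the 3 genes lie on both sides of 0, and Fmo2 in the pons was not tested.

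In the liver the pattern of the 3 genes was another one, with both Fmo2 and Fmo5 higher in restricted mice. Fmo2 stood at 71.6, 80.9, 85.9, 76.2 and 60.5 CPM in DR livers and at 43.8, 47.7, 32.6 and 37.4 CPM in AL livers, a log2 difference of 0.95 (SE 0.14). Fmo5 stood at 635, 577, 532, 608 and 786 CPM in DR livers and at 399, 259, 328 and 360 CPM in AL livers, a difference of 0.96 (SE 0.20). For both genes every DR liver lay above every AL liver, as was the case for 1.55% of the genes tested. Mouse 67, the highest for Fmo2 in most brain regions, had the lowest Fmo2 of the DR livers and the highest Fmo5.

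Fmo1 stood at 184, 192, 189, 198 and 179 CPM in DR livers and at 208, 202, 185 and 185 CPM in AL livers, with overlapping groups. The mean CPM was 189 in DR and 195 in AL livers, a ratio of 0.967, while the fitted log2 difference, which uses TMM-scaled library sizes, was 0.011 (SE 0.12), so that the sign depends on the scaling. Of the 3 genes edgeR called only Fmo2 in liver, where 0.152% of genes were called higher. That call was lost in 7 of the 9 fits that left out 1 mouse, while the difference stayed between 0.86 and 1.02.

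**Figure D3:**
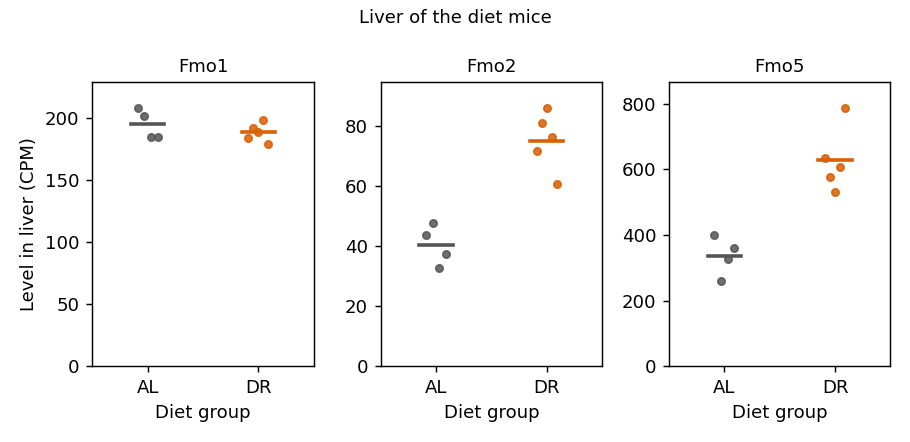
Level in liver in CPM (vertical axes, each starting at 0) of Fmo1, Fmo2 and Fmo5 in AL (grey) and DR (orange) mice; points are mice and lines are means. The groups are apart for Fmo2 and Fmo5 and overlap for Fmo1.

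Levels of different genes can be set side by side only per length, here CPM per kb of annotated exon. On that scale Fmo2 had a lower mean than Fmo1 and Fmo5 in 15 of 15 regions of AL mice, of PBS mice and of YMP mice. In aDR mice its mean per kb lay above that of Fmo5 in 12 regions and above that of Fmo1 in 6. In the medulla the level per kb of Fmo2 was 0.592 ± 0.160 (SD, n = 4) in AL mice and 2.16 ± 0.741 (SD, n = 5) in aDR mice. Fmo1 there had 0.883 ± 0.107 per kb in AL and 0.862 ± 0.146 in aDR mice, and Fmo5 0.948 ± 0.171 and 1.05 ± 0.154. In 6 regions (cerebellum, corpus callosum, anterior hippocampus, medulla, motor cortex and thalamus) Fmo2 thus had the highest mean per kb of the 3 in restricted mice. In each of them mouse 67 had the highest Fmo2 of the aDR mice. It stood at 20.8 CPM in the thalamus (next 7.40), 15.3 in the corpus callosum (next 6.44) and 16.5 in the anterior hippocampus (next 8.98). In the motor cortex it stood at 10 CPM (next 5.73), and the mean per kb there was 1.11 for Fmo2 and 0.965 for Fmo1. The means in these regions lean on this mouse, and the order without it was not computed in any of the 6. The order of means follows from the diet difference through which Fmo2 was chosen and adds nothing independent to it.

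Bulk tissue gives no cell type, and fewer cells of a type cannot be told apart from less RNA per cell. Of the 6 endothelial markers 2 fell in aDR brains, Cldn5 by 0.48 on the log2 scale (limma adjusted p 0.0402) and Flt1 by 0.26 (adjusted p 0.0382), in a fit that called 0.922% of all genes. The other 4 were not called and had differences of both signs, -0.26 for Pecam1, -0.12 for Itm2a, 0.020 for Ly6c1 and 0.13 for Slco1a4. Summed levels per mouse are not plain sums over libraries. Each is the mouse term of log2 summed CPM (plus 1) on mouse and region, turned back to CPM. The summed endothelial level per mouse was 242 to 273 CPM in aDR and 255 to 294 CPM in AL mice. Of the 8 mural markers 0 were called, with a summed level of 125 to 147 CPM in aDR and 138 to 164 CPM in AL mice, and of the 7 fibroblast markers 0 were called, with 49.2 to 76.2 CPM in aDR and 60.8 to 74.1 CPM in AL mice. The 7 choroid plexus markers summed to 14.2 to 45.0 CPM in aDR and 13.4 to 36.0 CPM in AL mice. Blood markers were higher by 0.76 on the log2 scale over their sum, at 3.95 to 17.2 CPM in aDR and 5.22 to 7.0 CPM in AL mice, with 0 of 3 called. For fibroblast markers mouse 67 stood at 76.1 CPM, level with mouse 61 at 76.2 CPM and above the 49.2 to 63.8 CPM of the other restricted mice. Hepatocyte markers summed to 1.83 to 2.19 CPM in aDR and 1.76 to 2.76 CPM in AL brains. No marker was at 0 in all libraries, and the part of these cell types in the Fmo2 difference was not tested.

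Few genes that supply or accompany these enzymes were called with diet. Among microsomal partners, 1 of 6 was called in the brain, Cyb5r3 (cytochrome b5 reductase), which rose by 0.21 (SE 0.037, limma adjusted p 0.0382), beside the 0.922% of all genes called by mouse value. Por, the reductase that passes electrons from NADPH to cytochromes P450, differed by 0.13 (SE 0.030, adjusted p 0.0921). The list had a median difference of 0.13 beside -0.0062 over all genes tested. In the liver 0 of 6 partners were called by edgeR, with Por at 1.13 (SE 0.32, adjusted p 0.230) and Cyb5a, the electron carrier cytochrome b5, at 0.38 (SE 0.18, adjusted p 0.589), and a list median of -0.16 beside 0.018 over all genes.

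The NADPH-forming enzymes with a row were 5 of 6, and 0 were called in brain (median 0.024) or liver (median -0.62). In the brain H6pd, the hexose phosphate dehydrogenase inside the endoplasmic reticulum, differed by 0.12 (SE 0.048, limma adjusted p 0.279) and G6pdx, which opens the pentose phosphate pathway, by 0.081 (SE 0.035, adjusted p 0.302). In the liver Pgd differed by -0.62 (SE 0.26, edgeR adjusted p 0.485) and Me1, malic enzyme, by -0.85 (SE 0.38, adjusted p 0.533). Both liver values were negative and neither passed the test.

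For taurine synthesis and uptake 0 of 5 genes tested were called in the brain (median -0.026) and 0 of 6 in the liver (median -0.14). Ado and Gadl1 had the smallest p in brain, at -0.094 (SE 0.060) and -0.088 (SE 0.066), with limma adjusted p of 0.483 and 0.561. Csad and the taurine transporter Slc6a6 had the smallest p in liver, at -0.33 (SE 0.30) and -0.15 (SE 0.18), with edgeR adjusted p of 0.847 and 0.911. Of 12 regulators named for this family, 0 of 10 tested in the brain (median -0.0100) and 0 of 12 in the liver (median 0.11) were called. The xenobiotic receptor gene Nr1i3 differed by -0.20 in brain (SE 0.044, limma adjusted p 0.0755), Nr1i2, another xenobiotic receptor gene, by 0.86 in liver (SE 0.18, edgeR adjusted p 0.0892) and Arnt by 0.33 (SE 0.17, adjusted p 0.610).

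Young plasma, a treatment from which no member was chosen, was the comparison open to a test. Fmo2 passed the filter on low counts in 14 of 15 regions, Fmo1 and Fmo5 in 15. The region left out was the pons, where Fmo2 had 17, 41 and 1 counts in YMP mice and 8, 4 and 21 in PBS mice. The mouse values of Fmo2 over the brain were 0.88, 1.35 and 1.17 in YMP and 1.79, 1.06, 1.01 and 1.28 in PBS mice. These overlapped, with the highest and the lowest mouse in different groups, and the difference was -0.15 (SE 0.20, limma adjusted p 0.858, exact permutation p 0.629). Its 95% interval of -0.63 to 0.33 (a ratio of 0.646 to 1.25) lies below the diet difference of 1.36, but the diet and plasma mice differ in sex and experiment and the difference between the effects was not tested.

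For Fmo1 the plasma difference in the brain was -0.022 (SE 0.089, limma adjusted p 0.952, exact permutation p 0.8), with a 95% interval of -0.23 to 0.19. For Fmo5 it was -0.14 (SE 0.086, adjusted p 0.71, exact permutation p 0.2), with an interval of -0.34 to 0.062. The permutation tests were two-sided, could not go below 0.0286 with 3 against 4 mice, and gave 0.8, 0.8 and 0.6 for Fmo1, Fmo2 and Fmo5 after Benjamini-Hochberg adjustment over the 3. By mouse value limma called 0% of all genes with plasma, that is 0 of 15768, with 1275 at an unadjusted p under 0.05. Marker sums per mouse were again mouse terms turned back to CPM. The choroid plexus markers, all 7 lower in YMP mice, summed to 11.5 to 23.4 CPM in YMP and 31.7 to 95.2 CPM in PBS mice, with 0 called. The summed levels of YMP mice also lay wholly below those of PBS mice for astrocyte markers (3828 to 3922 CPM against 3924 to 4195 CPM, 0 of 7 called) and hepatocyte markers (1.69 to 1.84 CPM against 2.51 to 3.52 CPM, 0 of 2 tested called). The sums of the other cell type lists overlapped. How many of all genes had mouse values apart was not counted, so nothing is read from these gaps. The part of the cell type lists in the plasma values was not tested.

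By region, edgeR called none of the 3 genes after plasma in any region tested, beside 0.0127% of all gene-by-region pairs. An unadjusted p under 0.05 was reached in 1 region for Fmo1, 2 for Fmo2 and 2 for Fmo5, and DESeq2 called Fmo2 in 0 regions. Over all genes, 150 of 13135 (pons) to 1910 of 14120 (SVZ) reached that unadjusted edgeR p in a region. YMP and PBS values were apart in 0 regions for Fmo1, 2 for Fmo2 and 2 for Fmo5, one way or the other, beside 9.23% of all pairs. In the posterior hippocampus Fmo2 was at 2.59, 1.92 and 2.79 CPM in YMP and 1.12, 1.64 and 1.38 CPM in PBS mice, a difference of 0.84 (SE 0.29, adjusted p 1.0 by edgeR). In the hypothalamus it was at 0.608, 1.71 and 1.80 CPM in YMP and 2.61, 2.08 and 2.02 CPM in PBS mice, a difference of -0.71 (SE 0.41, edgeR adjusted p 0.998). The 2 regions in which the groups were apart thus pointed in opposite directions.

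The olfactory bulb gave the largest plasma difference of Fmo2, 1.01 (SE 0.31, edgeR adjusted p 0.460), and it rested on a single library. The YMP mice 73, 77 and 81 had 1.65, 3.34 and 8.80 CPM and the PBS mice 2.40, 3.34, 3.26 and 3.45 CPM. Without mouse 81 the difference was -0.061, and without mouse 77 it was 1.32 with an adjusted p of 0.0205 by edgeR. The library of mouse 81 was also the highest olfactory bulb for Fmo5, at 11.7 CPM beside 4.95 and 5.85 CPM in the other YMP mice and 10.2, 6.49, 6.09 and 4.85 CPM in PBS mice. It had 7.5 CPM of Fmo6 beside 0 to 1.91 CPM in the other 6, and its blood markers summed to 209 CPM beside 21.4 to 105 CPM in the others. Also outside the other 6 were its choroid plexus markers (68.3 CPM beside 44.6 to 57.3), its ependymal markers (28.5 CPM beside 19.7 to 23.1), and, below them, its microglial (203 CPM beside 234 to 260), astrocyte (2955 CPM beside 3003 to 3234) and neuronal markers (4804 CPM beside 4973 to 5203). Its fibroblast markers summed to 310 CPM, within the 127 to 330 CPM of the others, and the library of mouse 73 was the smallest of all, with 0.606 M counts. The part of these cell types or of depth in this difference was not tested.

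Whether the plasma difference varied by region was tested in edgeR with the terms that let treatment act differently in each region. This test had no mouse term, although regions share animals, and called 0.824% of all genes. Fmo1, Fmo2 and Fmo5 had an adjusted p of 1, 1 and 0.977 in that test. Of the lists, 0 genes were called with plasma. The 2 with the smallest p were Ado (-0.039, SE 0.067) and Slc6a6 (-0.039, SE 0.080) for taurine, Me1 (-0.14, SE 0.065) and Idh1 (-0.077, SE 0.038) for NADPH, Ephx1 (-0.24, SE 0.11) and Mgst1 (-0.20, SE 0.10) among microsomal partners, and Hif1a (-0.081, SE 0.039) and Foxa2 (0.14, SE 0.082) among regulators. Their limma adjusted p lay at 0.887, 0.910, 0.641, 0.644, 0.644, 0.663, 0.644 and 0.689 in that order.

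**Figure D4:**
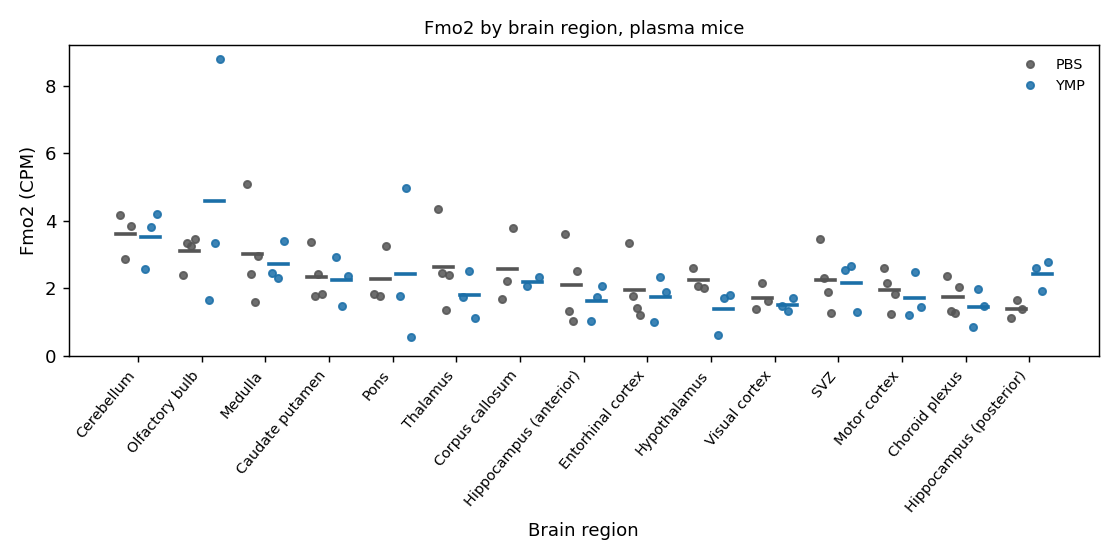
Fmo2 level in CPM (vertical axis) of each library by brain region, for PBS mice (grey) and YMP mice (blue); points are mice and short lines are group means. Values of both groups mix in most regions, and the highest point, 8.80 CPM, is the olfactory bulb of YMP mouse 81.

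In control mice the regional order was clearest for Fmo1. The olfactory bulb was highest, with 42.0, 41.4, 28.5 and 48.8 CPM in AL mice and 38.4, 49.8, 47.9 and 41.1 CPM in PBS mice, a mean over both of 42.2 CPM. Hypothalamus (16.9 CPM) and entorhinal cortex (14.5 CPM) followed, then SVZ (11.2), pons (9.80), caudate putamen (9.71), thalamus (9.24), visual cortex (8.64), anterior hippocampus (8.16), choroid plexus (7.55), posterior hippocampus (6.09), motor cortex (5.74), corpus callosum (5.65), cerebellum (5.29) and medulla (5.09 CPM). The lowest olfactory bulb value lay above the highest Fmo1 value of any other region in these mice.

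The olfactory bulb exceeded the hypothalamus by 1.37 on the log2 scale (SE 0.16, edgeR adjusted p 3.45e-12) and the medulla by 2.86 (SE 0.17, adjusted p 1.50e-28). Among the 14 pairs of neighbours in the order of Fmo1, the only other one called was entorhinal cortex against SVZ, by 0.39 (SE 0.18, edgeR adjusted p 0.0451). The remaining 12 neighbours were not called, which does not show them to be equal. Over the same 14 pairs 59.1% of tests of all genes were called. The order was much the same in the 2 cohorts, with a Spearman rank correlation of the 15 region means of 0.95 between AL and PBS mice. The Pearson correlation was 0.993, on a scale with the olfactory bulb far above the rest. Both are given as a description since regions share animals.

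Fmo5 had its highest level in the SVZ, the germinal zone beside the lateral ventricle, with 8.13, 10.4, 9.95 and 9.33 CPM in AL and 10.7, 9.97, 9.77 and 10.2 CPM in PBS mice. Its mean of 9.80 CPM was followed by corpus callosum (7.58), pons (7.56), hypothalamus (6.94), choroid plexus (6.93), cerebellum (6.88), caudate putamen (6.52), anterior hippocampus (6.37), medulla (6.12), olfactory bulb (6.03), thalamus (5.68), posterior hippocampus (5.02), entorhinal cortex (4.57), visual cortex (4.15) and motor cortex (3.78 CPM). The 3 cortical regions thus closed the order of Fmo5. The SVZ exceeded the motor cortex by 1.28 (SE 0.15, edgeR adjusted p 4.31e-12), but 0 of 14 neighbours were called, beside 54.0% of tests of all genes over those pairs.

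Fmo2 had the smallest range of the 3 over regions, from 3.92 CPM in the cerebellum to 1.67 CPM in the posterior hippocampus, a difference of 0.96 (SE 0.19, edgeR adjusted p 8.90e-06). Between them lay olfactory bulb (3.50), medulla (3.17), caudate putamen (3.04), pons (3.00), thalamus (2.67), corpus callosum (2.53), anterior hippocampus (2.5), entorhinal cortex (2.24), hypothalamus (2.23), visual cortex (2.21), SVZ (2.20), motor cortex (1.91) and choroid plexus (1.88 CPM). Of 14 neighbours 0 were called, beside 61.2% of tests of all genes. In the F test over the 15 regions all 3 genes varied, with edgeR adjusted p of 4.00e-37 for Fmo1, 2.67e-08 for Fmo2 and 1.18e-12 for Fmo5, as did 99.7% of the genes tested, so that passing this test does not set them apart. The Pearson correlation of AL with PBS region means was 0.752 for Fmo2 and 0.793 for Fmo5 over the 15 regions, and the Spearman correlation 0.725 and 0.718.

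**Figure D5:**
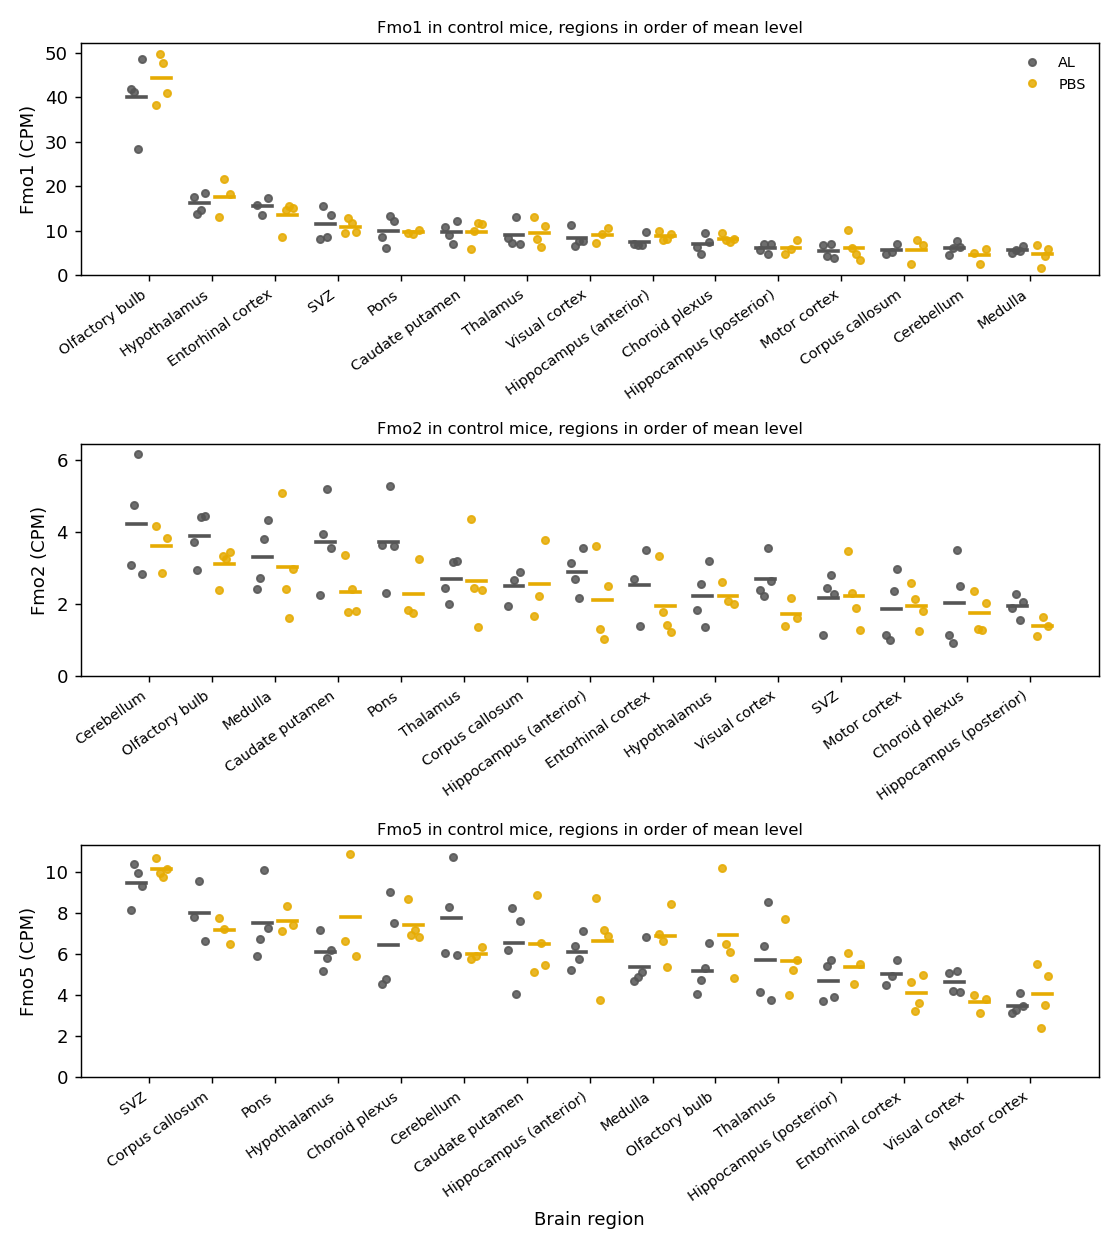
Level in CPM (vertical axes) of Fmo1, Fmo2 and Fmo5 in AL (grey) and PBS (yellow) mice by brain region, each gene in its own order of mean level; points are mice and short lines are means. Fmo1 has the olfactory bulb far above the other regions, at a mean of 42.2 CPM, whereas Fmo2 and Fmo5 fall off gradually from 3.92 and 9.80 CPM.

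All 3 genes were far higher in liver than in brain. In AL mice, liver exceeded the mean of the brain regions by 6.79 on the log2 scale for Fmo5 (SE 0.077, edgeR adjusted p 7.91e-53), by 5.36 for Fmo1 (SE 0.087, adjusted p 8.97e-46) and by 4.85 for Fmo2 (SE 0.12, adjusted p 1.40e-37). Of all genes 86.3% were called in this comparison, in one direction or the other. Per kb of exon, AL livers had 59.3 ± 10.4 CPM of Fmo5, 30.9 ± 1.88 of Fmo1, 7.23 ± 1.32 of Fmo4 and 7.20 ± 1.20 of Fmo2 (SD, n = 4 each). In DR livers Fmo5 had 111 ± 17.0 per kb, and Fmo2, at 13.4 ± 1.73, stood above Fmo4, at 6.35 ± 1.71 (SD, n = 5 each).

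Other members of the family had few counts in brain. Fmo4 had at most 10 counts in any of the 229 brain libraries and 0 counts in 154, and Fmo9 at most 3 with 0 in 214. Fmo6, annotated next to Fmo2, exceeded 3 counts in 5 brain libraries, all of them olfactory bulb and from AL, PBS and YMP mice. They held 6, 16, 20, 17 and 86 counts. In liver Fmo4 stood at 26.8 ± 4.91 CPM (SD, n = 4) in AL and 23.6 ± 6.34 CPM (SD, n = 5) in DR mice, a difference of -0.14 (SE 0.21, edgeR adjusted p 0.932), and Fmo9 had 0 counts in 9 of 9 livers.

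The genes most like each member were ranked by the correlation of log2 CPM of region means in control mice (15 regions, which share animals) and, separately, by the correlation of deviations from the group mean over the 229 brain libraries, which share animals and depth. By region the 5 genes nearest Fmo2 were Meis1 (0.906), Ndufs4 (0.904), Chchd7 (0.897), Tubgcp5 (0.892) and Eprs (0.877), beside a median of 0.101 over all genes. For Fmo1 they were Zfp36l2 (0.896), Rhcg (0.883), Acbd7 (0.859), Prok2 (0.854) and Evl (0.851), and for Fmo5 Rest (0.935), Sys1 (0.927), Tgif1 (0.924), Kctd11 (0.921) and Cyba (0.906).

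By deviation within groups, the nearest to Fmo2 were C5ar1 (0.577), Cavin2 (0.575), Phyhd1 (0.556), Apod (0.539) and F3 (0.538), beside a median of 0.0653 over all genes. Genes near Fmo1 by this measure were Slc7a11 (0.582), Colec12 (0.562), Serping1 (0.554) and Cp (0.554), and Fmo5 was nearest to Tmem123 (0.578), Msn (0.578), Abcc4 (0.562), Tgfbr2 (0.560) and Reep3 (0.554). The members were not among each other's 5 nearest, and so lay below them by rule. Within groups the correlation was 0.429 for Fmo1 and Fmo2, 0.361 for Fmo1 and Fmo5 and 0.359 for Fmo2 and Fmo5. The medians over all genes there were 0.0631 (Fmo5) to 0.0757 (Fmo1). Over region means the same pairs had 0.195, 0.0689 and 0.298, beside medians of 0.0795 (Fmo5) to 0.101 (Fmo2). None of the genes named for a member was shared with another member under either measure.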

How the data were processed

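The authors deposited raw counts per gene, whole numbers in a single table of 21076 genes and 238 libraries, and 537 genes had no count. Per the labels, RNA was isolated with RNeasy columns and libraries were made with Smart-Seq2 and Nextera XT without strand. The submitters' processing notes name Trim Galore 0.3.7, STAR 2.5.3a, DESeq2 and GRCm38, with no roles, and the counting program and annotation are not given in the sources used here. The members and lists were chosen with earlier results of these data known. Positions and exon lengths came from GENCODE M21.

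Each region was fitted alone with edgeR 4.0.16 in R 4.3.3 (quasi-likelihood, TMM, filterByExpr with minimum counts of 10 and 15), and p-values were adjusted over all genes by Benjamini-Hochberg with a threshold of 0.05. Mouse values (log2 CPM, prior count 2) were compared with limma 3.58.1. Regional levels of control mice and liver against brain in AL mice were tested with edgeR with mouse as a term. The region by treatment terms were tested with edgeR without a mouse term, which was added only in an alternative fit. Levels are CPM of library totals. DESeq2 1.42.0, voom, other scalings and leaving out each mouse were alternatives. The fit of a single region (diet motor cortex), the mouse-value fits and a contrast between control regions were tested on simulated data. The region by treatment, F test, liver against brain, DESeq2 and voom fits were not. Library depth was 0.606 to 32.4 M counts (M, mega), so that low counts limit the precision of Fmo2 most. Limits from counts cover counting error only, since no molecular identifiers are named.

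A mouse number in the labels stands for a single animal in all regions, so it pairs regions and never treatments. Deviations of its libraries correlated at 0.050 on average within a mouse and -0.0062 between mice for diet, and at 0.124 and -0.021 for plasma. In 357 pairs of replicates the chi-square per degree of freedom was at least 1.29, so none was counted as a duplicate. Genes were named by rule: the members, list genes called or with the 2 smallest p, and the 5 genes nearest each member; endothelial genes and Fmo6 were named after their values had been seen. A few genes of this rule are not reported here.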

Additional observations from a re-analysis of the deposited data

Results flagged for a closer look

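In groups of 4 or 5 mice, a value was picked out when its gap to the nearest other value was a large share of the group's range (Dixon's 95% critical value). By chance alone about 1 in 20 would be picked out if values were normal and groups independent, but these groups share mice and libraries. The rule held for 10 of 117 groups, a share that is therefore not weighed against that rate. Of these, 4 were Fmo2 in aDR mouse 67, at 21.33 CPM in the cerebellum (others 8.19 to 11.1), 10 CPM in the motor cortex (others 4.64 to 5.73), 8.547 CPM in the SVZ (others 4.50 to 5.65) and 20.84 CPM in the thalamus (others 6.40 to 7.40). The same mouse had Fmo1 at 18.42 CPM in the entorhinal cortex, beside 12.9 to 14.1 CPM in the other aDR mice. Fmo1 was at 8.655 CPM in the entorhinal cortex of PBS mouse 72 (others 14.6 to 15.6) and at 9.633 CPM in the anterior hippocampus of AL mouse 69 (others 6.64 to 6.86). Fmo5 was at 8.706 CPM in the choroid plexus of PBS mouse 72 (others 6.84 to 7.16), at 4.255 CPM in the corpus callosum of aDR mouse 65 (others 7.04 to 7.42) and at 2.536 CPM in the olfactory bulb of aDR mouse 62 (others 4.40 to 4.93).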

How the results depend on the processing

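The diet difference of Fmo2 over the brain kept its direction under 17 alternatives (1.21 to 1.44), and in the liver under 12 (0.86 to 1.02). Counts over all genes moved far more, and the cause was not tested. With diet, 144 genes were called by mouse value, 1474 by voom with mouse as a replicate block, 2760 with no replicate block and 14 to 163 without 1 mouse. In the liver 26 were called, 224 with DESeq2 and 7 to 55 without 1 mouse. Over the 15 regions 108 gene-by-region pairs were called, 523 with DESeq2, 185 without the filter and 37 to 160 without 1 mouse, and Fmo2 was called in 2 regions, 8 with DESeq2, 4 without the filter and 0 to 4 without 1 mouse.

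With plasma, 0 genes were called by mouse value, 486 with the replicate block, 2629 with no replicate block and 0 to 1 without 1 mouse. By region 26 pairs were called, 946 with DESeq2, 44 with RLE factors, 422 without the filter and 1 to 777 without 1 mouse, and Fmo2 in 0 regions, 0 to 1 without 1 mouse. The region by treatment test called 130 genes, 3 without YMP mouse 81 and at most 155. Without 1 mouse the brain difference ran from -0.089 to 0.027 for Fmo1 (0.023 without PBS mouse 84, 0.027 without YMP mouse 73) and from -0.26 to 0.017 for Fmo2 (highest without PBS mouse 72), and the olfactory bulb difference from -0.061 to 1.32 for Fmo2 and from -0.17 to 0.78 for Fmo5 (both lowest without YMP mouse 81). The Fmo2 diet difference in the entorhinal cortex was 1.60 without AL mouse 69. The count of regions with Fmo2 groups apart (13) was also taken in 3 ways chosen after seeing the data, and was 13 or 14.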
